A study of Mus musculus with 19 samples.

Results

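Across 19 mouse lymphomas, 10 transcripts known from cartilage and skeletal muscle were followed: Acan, Comp, Matn1, Matn4, Hapln1, Chad, Cnmd, Acta1, Ckm and Myh4. They are the 10 rows of a table of 21086 genes that carry these symbols, 7 cartilage genes and 3 muscle genes. They were selected on their normalised read counts per tumour in these same 19 tumours: 1 tumour held far more of them than any other, and 2 further tumours held intermediate amounts. Their levels per tumour are therefore a description and carry no test. All 10 had a normalised read count of at least 1 in at least 4 tumours and passed the filter on low values.

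RNA was sequenced from tumours of mice with the Eμ-Myc transgene, which expresses the Myc oncogene in B cells from an immunoglobulin enhancer, so that all groups shared this driver. The groups were late Bptf+/Δ tumours (HET_late, 4 tumours, onset at 30 to 66 weeks), late Bptf+/+ tumours (WT_late, 5 tumours, 28 to 76 weeks), early Bptf+/Δ tumours (HET_early, 4 tumours, 8 to 13 weeks) and early Bptf+/+ tumours (WT_early, 6 tumours, 9 to 17 weeks). Bptf encodes a subunit of the NURF chromatin remodelling complex, and Bptf+/Δ mice carried 1 deleted allele. Tumours were collected when mice showed signs of disease, each library came from 1 frozen tumour, and its anatomical site is not named in the labels. Numbers after a group name only identify a tumour.

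Cartilage is a tissue of few cells in much matrix. Chondrocytes, its cells, secrete a collagen network filled with the large proteoglycan aggrecan, which binds hyaluronan through link protein. Cartilage oligomeric matrix protein, the matrilins, chondroadherin and chondromodulin are further proteins of this matrix. Skeletal muscle fibres are filled with contractile filaments of actin and myosin, and the muscle form of creatine kinase buffers their ATP. None of these proteins is a usual product of B cells.

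By GENCODE M21 (GRCm38), the cartilage members are Acan (chr7:79053483-79115099), Comp (chr8:70373558-70382066), Matn1 (chr4:130944385-130955475), Matn4 (chr2:164389393-164405160), Hapln1 (chr13:89539796-89611652), Chad (chr11:94565047-94569127) and Cnmd (chr14:79637690-79662170). The muscle members are Acta1 (chr8:123891769-123894751), Ckm (chr7:19404776-19422841) and Myh4 (chr11:67238029-67260446). All 10 are annotated as protein-coding, and the table holds 1 value per gene.

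Depth was 8297856 to 12497732 reads per tumour. Bptf had 408 to 1573 normalised reads in the 8 Bptf+/Δ tumours, against 1665 to 2586 in the 11 Bptf+/+ tumours, so that the groups did not overlap. HET_early_2 went against its tissue label. There, 11 of 12 B cell genes were at or below 10% of the median over the 19 tumours, and 8 of the 12 had their lowest value. Cd79a, a part of the B cell receptor, had 38.5 normalised reads in HET_early_2, against a median of 4364 over the 19 tumours. Myc was lowest in HET_early_2 as well, with 1232 normalised reads. Summed over the 12 B cell genes, the level was 911 in HET_early_2, 49651 in HET_early_3, 38443 in WT_early_5 and 9678 to 51962 in the other 16 tumours. WT_late_1 also had 5 of these 12 genes at or below 10% of the median, and HET_late_1 and HET_late_2 had 4 each. Results that rest on HET_early_2, HET_early_3 or WT_early_5 are given below with and without them.

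Promoter sequence is shown for the 3 muscle members, which moved together across the tumours and for which the text below turns on a shared pattern. The 250 bases before the RefSeq start (GRCm38.p6) are printed 5′ to 3′ on the gene's strand. Capitals mark 4 motifs searched on both strands: the E-box CANNTG, the site of myogenic helix-loop-helix factors such as MyoD; the M-CAT element CATTCC, bound by TEAD factors; the CArG box, CC and GG around 6 bases of A or T, the site of serum response factor; and the MEF2 box CTANNNNTAG. Acta1 lies at chr8:123894776-123895025 on the minus strand, Ckm at chr7:19410844-19411093 on the plus strand and Myh4 at chr11:67237562-67237811 on the plus strand.
Acta1: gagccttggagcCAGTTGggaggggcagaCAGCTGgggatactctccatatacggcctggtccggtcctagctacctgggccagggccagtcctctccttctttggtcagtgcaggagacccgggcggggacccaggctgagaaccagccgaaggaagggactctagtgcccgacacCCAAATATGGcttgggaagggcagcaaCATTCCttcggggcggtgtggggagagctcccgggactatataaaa
Ckm: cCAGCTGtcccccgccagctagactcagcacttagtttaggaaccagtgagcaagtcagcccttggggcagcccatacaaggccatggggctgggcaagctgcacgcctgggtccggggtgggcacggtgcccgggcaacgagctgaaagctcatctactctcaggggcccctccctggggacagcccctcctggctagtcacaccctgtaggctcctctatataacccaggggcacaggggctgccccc
Myh4: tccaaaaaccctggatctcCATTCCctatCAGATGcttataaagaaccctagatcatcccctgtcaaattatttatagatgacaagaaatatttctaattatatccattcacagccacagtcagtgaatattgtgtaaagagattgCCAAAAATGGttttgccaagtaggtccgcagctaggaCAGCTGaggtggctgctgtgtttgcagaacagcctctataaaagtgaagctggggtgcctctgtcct
In a window that also takes in the 50 bases after the start, Acta1 held 2 E-boxes, 1 M-CAT element and 1 CArG box, and Myh4 held 3 E-boxes, 1 M-CAT element and 1 CArG box. Ckm held 1 E-box. Of all 32851 promoters of the same length, 72.3% held an E-box, 14.7% an M-CAT element, 1.6% a CArG box and 3.7% a MEF2 box. The CArG box lay 73 to 64 bases before the start in Acta1 and 104 to 95 bases before it in Myh4. No MEF2 box was found in these 3 windows. Among the cartilage members, the SOX letters AACAAT, present in 10.7% of all promoters, were found in no window, and Comp was without a sequence in the table. A match of letters is a description and says nothing of binding.

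**Figure D1:**
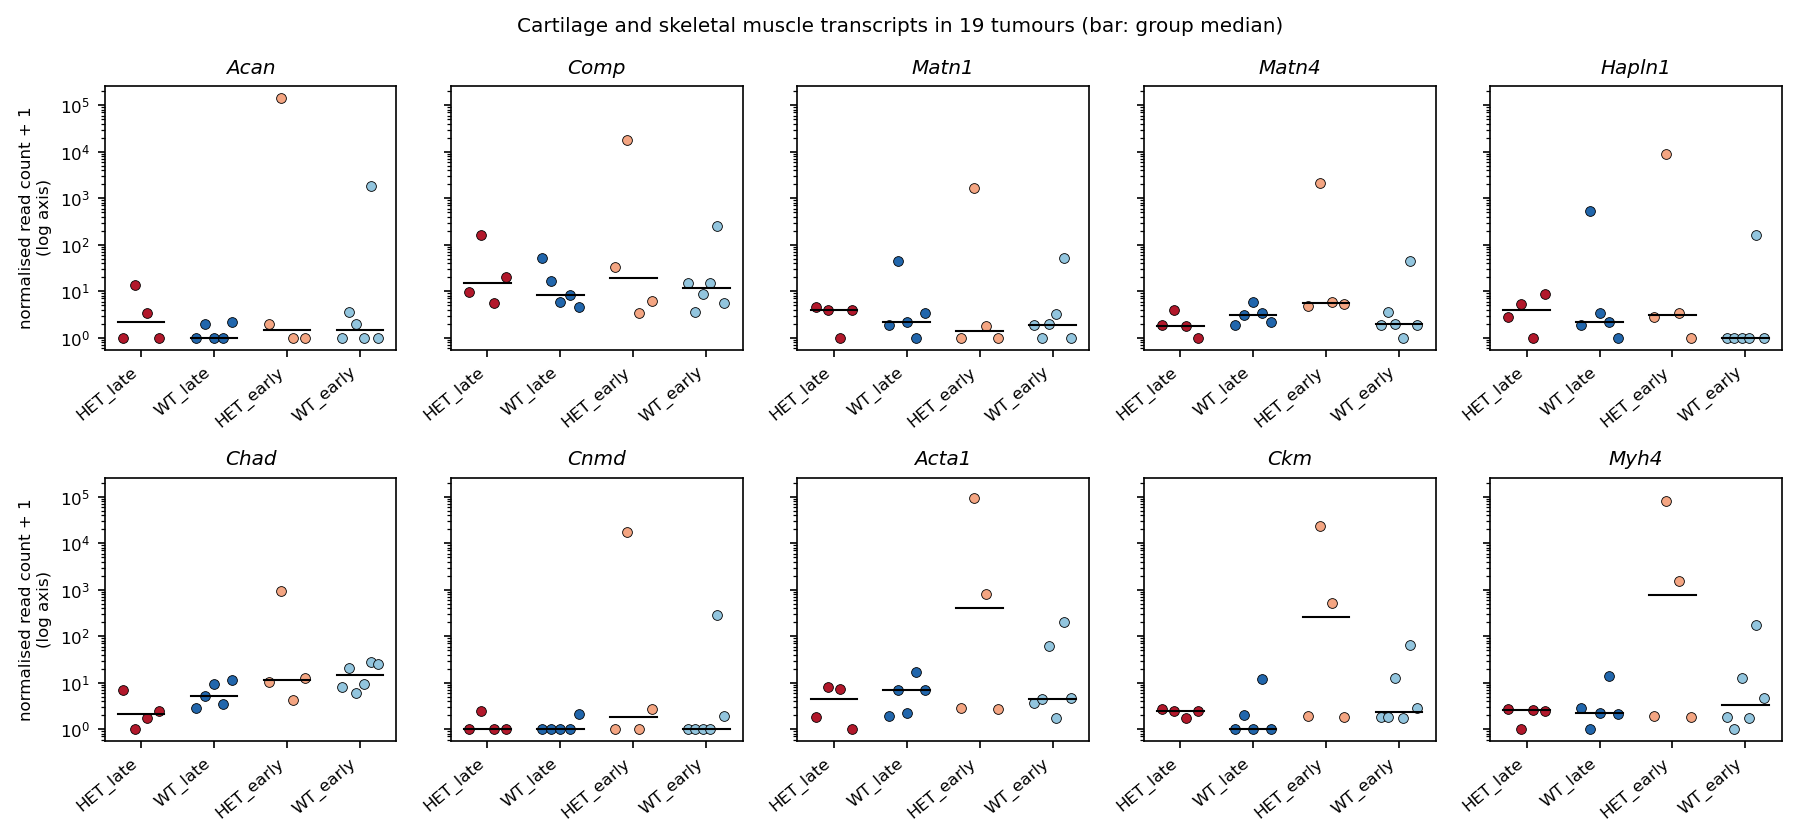
Normalised read count plus 1 (log axis) of the 10 members in 19 tumours, by group: HET_late (n = 4), WT_late (n = 5), HET_early (n = 4) and WT_early (n = 6). Each point is 1 tumour and each bar a group median. HET_early_2 is the highest point in every panel, at 920 (Chad) to 142977 (Acan).

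Acan encodes aggrecan, the main proteoglycan of cartilage. It had 0, 13.0, 2.36 and 0 normalised reads in HET_late tumours 1 to 4, against 0, 1.02, 0, 0 and 1.18 in WT_late tumours 1 to 5. In HET_early tumours 1 to 4 it had 0.931, 142977, 0 and 0, against a lowest value of 0, a median of 0.491 and a highest value of 1865 in WT_early. The tumours far above the rest were thus 2 early ones of different genotype, HET_early_2 and WT_early_5, and HET_early_2 was 76.7 times as high as WT_early_5. No read of it was found in 10 of the 19 tumours. By the ratio of HET_early_2 to the median of the other tumours, with 1 added to both, Acan ranked 1 among 21082 genes.

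Cnmd, which encodes chondromodulin, a cartilage protein known to hold back blood vessel growth, was the sparsest member outside these 2 tumours. It was at 0 in 13 of 19 tumours. Its values were 17646 in HET_early_2 and 288 in WT_early_5, a ratio of 61.2, and at most 1.68 in the 17 other tumours. Cnmd and Acan were both at 0 in HET_early_3.

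Comp, a pentameric matrix protein of cartilage and tendon, was read in every tumour. It had 8.71, 164, 4.72 and 19.6 normalised reads in HET_late tumours 1 to 4, against 50.7, 15.3, 4.82, 7.25 and 3.53 in WT_late tumours 1 to 5. In HET_early tumours it had 31.7, 17643, 2.45 and 5.05, against a lowest value of 2.56, a median of 10.9 and a highest value of 258 in WT_early. HET_early_2 and WT_early_5 were again the highest, and the groups overlapped. HET_late_2 came next, against a median of 8.71 over the 19 tumours. Acan was at 13.0 in HET_late_2 against a median of 0, its highest value in the tumours other than HET_early_2 and WT_early_5. Col2a1, the main collagen of cartilage, had 56.2 there against a median of 11.1, and Col9a1, another collagen of cartilage, 4.32 against 0. Other cartilage collagens were mixed in HET_late_2. Col11a1 had 18.7 against a median of 7.25 and Col9a2 5.76 against 1.97. Col11a2, at 53.3 against 77.5, and Col9a3, at 4.32 against 4.90, were below their medians. Chad was at 0 in HET_late_2, against a median of 6.96. Thbs4, a thrombospondin of tendon, had 302 normalised reads in HET_late_2 against a median of 28.7 over the 19 tumours. It was also high in HET_early_1, at 322, and in WT_late_1, at 188. The other measured tendon genes, Scx and Mkx, were both at 0 in HET_late_2, against medians of 8.84 and 0.

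Hapln1 encodes link protein, which ties aggrecan to hyaluronan. It had 1.74, 4.32, 0 and 7.53 normalised reads in HET_late tumours 1 to 4, against 0.922, 533, 2.41, 1.21 and 0 in WT_late tumours 1 to 5. In HET_early tumours it had 1.86, 9155, 2.45 and 0, against 161 in WT_early_5 and 0 in the other 5 WT_early tumours. The next tumour of Hapln1 was thus WT_late_2, 17.2 times below HET_early_2. Matn1, matrilin 1, an adaptor protein of cartilage, was also high in WT_late_2, at 42.8, close to its 49.8 in WT_early_5. Yet WT_late_2 had 1.02 normalised reads of Acan, none of Cnmd and 8.15 of Col2a1, against a median of 11.1, so that these 3 genes were not high there.

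Matn1 reached 1685 in HET_early_2 and lay between 0 and 3.48 in the tumours other than HET_early_2, WT_early_5 and WT_late_2. Matn4, matrilin 4, had 2083 in HET_early_2, 43.6 in WT_early_5 and 0 to 4.90 in the 17 other tumours. Chad, chondroadherin, a leucine-rich matrix protein, had 920 in HET_early_2 and ranked lowest of the members, at position 254 by the ratio to the median. Its second tumour was WT_early_5 with 27.6, but WT_early_6 had 24.8 and WT_early_2 had 19.6, in tumours with 0 and 2.56 normalised reads of Acan. Comp had 4.59 in WT_early_6 and 2.56 in WT_early_2, both below its median of 8.71.

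The 3 muscle members had a different second tumour. Acta1, skeletal muscle alpha-actin, had 0.871, 7.20, 6.29 and 0 normalised reads in HET_late tumours 1 to 4, against 0.922, 6.12, 1.20, 15.7 and 5.88 in WT_late tumours 1 to 5. In HET_early tumours it had 1.86, 92596, 803 and 1.68, against a lowest value of 0.747, a median of 3.54 and a highest value of 206 in WT_early. HET_early_2 was 115 times as high as HET_early_3, the second tumour, and WT_early_5 came after it. WT_early_3 followed with 60.9.

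Ckm, muscle creatine kinase, had 1.74, 1.44, 0.787 and 1.51 normalised reads in HET_late tumours 1 to 4, against 0, 1.02, 0, 10.9 and 0 in WT_late tumours 1 to 5. In HET_early tumours it had 0.931, 22902, 510 and 0.842, against a lowest value of 0.747, a median of 1.35 and a highest value of 62.3 in WT_early. Myh4, the myosin heavy chain of the fastest (type IIb) fibres, had 1.74, 0, 1.57 and 1.51 in HET_late, against 1.84, 0, 1.20, 13.3 and 1.18 in WT_late. In HET_early it had 0.931, 82456, 1530 and 0.842, against a lowest value of 0, a median of 2.27 and a highest value of 176 in WT_early. The order of the highest tumours was the same for all 3 genes: HET_early_2, HET_early_3, WT_early_5. In HET_early_3 the muscle members were high while Acan and Cnmd had no read and the other 5 cartilage members had 0.816 to 4.90.

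Scaled to transcript length and depth (RPKM), the levels of the members in HET_early_2 can be set beside each other. Acta1 was highest at 4931, followed by Acan at 1497, Myh4 at 1055, Cnmd at 948, Ckm at 643, Comp at 562, Hapln1 at 123, Matn4 at 69.6, Matn1 at 64.9 and Chad at 42.2. With a shorter coding transcript of Ckm, 1235 bases long, its level came to 1428. Neighbours in this order were single values of 1 tumour, so their differences have no replicate check. Myh4 shared 18.9% of its 50-base windows with Myh1, Myh2, Myh8 and Myh13, which are other myosin heavy chains, so its level is uncertain to that extent. Ckm shared 11.7% with A930016O22Rik and Matn4 3.33% with Rbpjl, each overlapping on the opposite strand, and the labels do not say whether counting used strand.

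Together the 10 members took 3.0% of the reads of HET_early_2, 1.48% from the 7 cartilage genes and 1.52% from the 3 muscle genes. In HET_early_3 they took 0.0303% of reads, with 17 cartilage reads and 3483 muscle reads. WT_early_5 had a similar share, 0.0342%, of the opposite make-up, with 3026 cartilage reads and 499 muscle reads. In the other 16 tumours the members had 20 to 594 reads in all, which is 1.78 to 61.2 RPM (reads scaled to library depth) with a median of 3.03. The intervals below cover counting error only, because PCR copies could not be told from separate molecules. In these bulk samples, fewer cells of a type and less RNA per cell cannot be told apart.

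**Figure D2:**
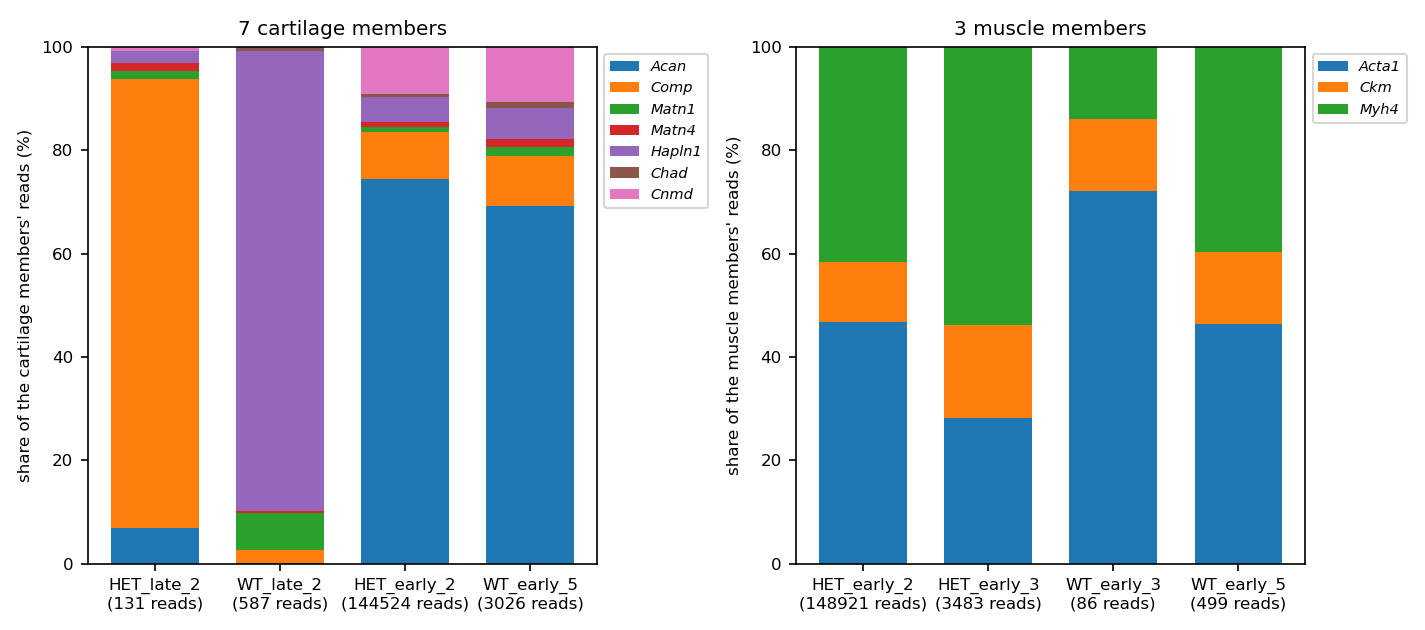
Make-up of the reads of the 7 cartilage members (left) and the 3 muscle members (right) in selected tumours, as stacked shares in percent that add to 100, with the number of reads under each bar. HET_early_2 and WT_early_5 have similar bars on both sides, with Acan at 74.4% and 69.2% of cartilage reads, while Hapln1 fills 89.1% of the bar of WT_late_2 and Comp 87.0% of that of HET_late_2.

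HET_early_2 and WT_early_5, the highest tumours of 6 cartilage members, shared the leading place of Acan among the cartilage reads. Acan took 74.4% of them in HET_early_2 (Wilson 95% interval 74.2 to 74.6) and 69.2% in WT_early_5 (67.6 to 70.9). Comp took 9.18% in HET_early_2 and 9.58% in WT_early_5, and Cnmd 9.19% and 10.7% in these 2 tumours. The minor members took larger shares in WT_early_5: Matn1 had 0.877% in HET_early_2 and 1.85% in WT_early_5 (1.43 to 2.40), and Chad had 0.479% in HET_early_2 and 1.02% in WT_early_5 (0.723 to 1.45). The intervals of these tumours overlapped for Comp and not for the other 6 members, which describes 2 single tumours without replicates and is no test. HET_late_2 and WT_late_2 had a different leading gene, with 114 of 131 cartilage reads from Comp in HET_late_2 and 523 of 587 from Hapln1 in WT_late_2.

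Muscle reads divided in similar shares in HET_early_2 and WT_early_5, with overlapping intervals for all 3 genes. Acta1 took 46.8% of them in HET_early_2 (46.5 to 47.0) and 46.3% in WT_early_5 (42.0 to 50.7), and Myh4 took 41.7% in HET_early_2 and 39.7% in WT_early_5. In HET_early_3 the balance was shifted to the fast myosin, with 53.8% from Myh4 (52.1 to 55.5), 28.3% from Acta1 (26.8 to 29.8) and 17.9% from Ckm. WT_early_3, with 86 muscle reads, had 72.1% from Acta1 (61.8 to 80.5). These are shares of reads, in which a long transcript counts for more than a short one.

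**Figure D3:**
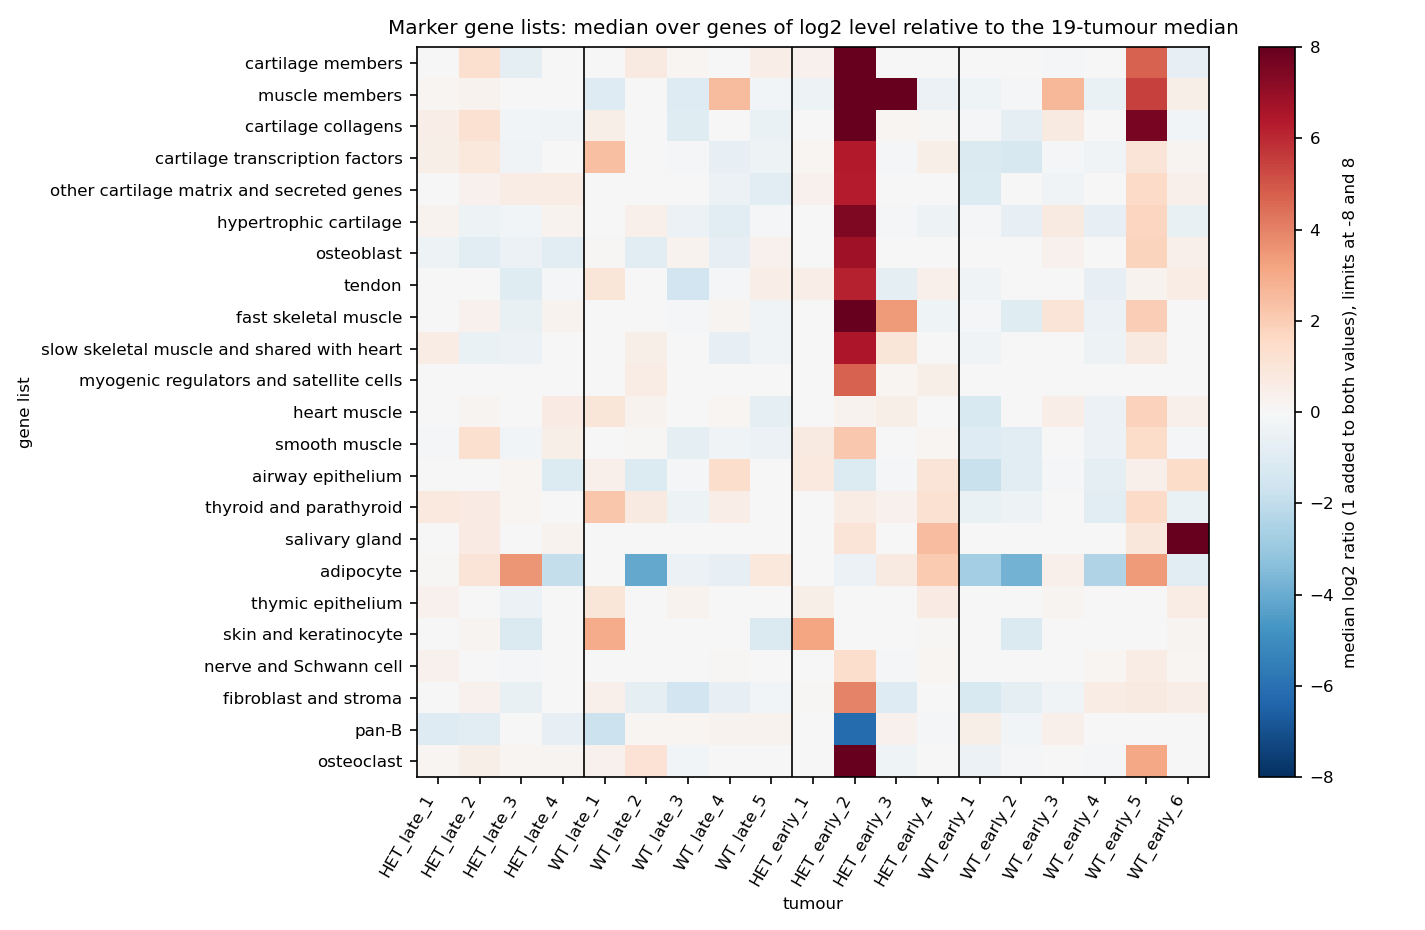
Median over the measured genes of each list of the log2 ratio of a tumour's level to the median of 19 tumours, with 1 added to both; colours are limited at -8 and 8. Rows are gene lists, columns are tumours ordered as HET_late, WT_late, HET_early and WT_early, parted by lines. HET_early_2 is high in cartilage, bone and skeletal muscle lists, near 0 in the heart muscle list and low in the B cell list. WT_early_5 is high in the cartilage members, cartilage collagens, muscle members, osteoclast and adipocyte lists. HET_early_3 is high in the muscle members and the fast muscle list and near 0 in the cartilage collagens.

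Other genes of cartilage were counted from lists, as the number of measured genes at least 4 times the median over the 19 tumours, with 1 added to both. All 6 cartilage collagens passed this in HET_early_2 and all 6 in WT_early_5, but 0 in HET_early_3 and at most 2 in the other 16 tumours. Col2a1, which forms the main fibril, had 566685 normalised reads in HET_early_2, 13.9 in HET_early_3 and 7592 in WT_early_5, against a median of 11.1. Col11a1, which sits inside that fibril, had 79090, 0.816 and 1161 in the same 3 tumours, and Col9a1, which coats it, had 43174, 0.816 and 780. Outside HET_early_2 and WT_early_5, Col11a2, a partner of Col11a1, did not keep to the tumours of Acan. It had 311 in WT_late_5 and 131 in HET_early_3, against a median of 77.5, where Acan had 1.18 and 0. Col2a1 had 4.71 and Col9a1 had 0 in WT_late_5, and both were near their medians in HET_early_3. Sox9, the regulator that sets chondrocyte identity, had 3020 in HET_early_2, 0 in HET_early_3 and 60.5 in WT_early_5, and Sox6, its partner, had 1062, 6.53 and 33.8. Of the cartilage transcription factors, 5 of 6 passed in HET_early_2, 0 in HET_early_3, 2 in WT_early_5 and up to 3 in the other 16 tumours. Sox6 had 116 in HET_late_3, and Runx2, a regulator of hypertrophic cartilage and bone, had 2005 in WT_late_1 against 1192 in HET_early_2, so these regulators were also high in tumours with few reads of Acan.

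Among 16 other cartilage matrix and secreted genes, 16 passed in HET_early_2, 6 in WT_early_5 and at most 3 in the other 16 tumours. Fmod, fibromodulin, a small proteoglycan bound to collagen, had 32456 normalised reads in HET_early_2 and 555 in WT_early_5, against a median of 76.2. Genes of hypertrophic cartilage, the stage before ossification, passed in 5 of 6 cases in HET_early_2 and in 3 of 6 in WT_early_5. Col10a1, the collagen of that stage, had 1077 in HET_early_2, 2.45 in HET_early_3 and 7.12 in WT_early_5. Mmp13, a collagenase of hypertrophic cartilage and bone, had 38874, 0 and 620 in the same tumours.

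Bone and connective tissue genes were high beside the cartilage genes in HET_early_2. There, 7 of 8 osteoblast genes, 3 of 3 tendon genes and 10 of 10 fibroblast genes passed the 4-fold mark. Dmp1, a matrix protein of osteocytes, had 3787 normalised reads in HET_early_2, 0 in HET_early_3 and 39.2 in WT_early_5, and Sp7, the osteoblast regulator osterix, had 1192, 0 and 15.1. Osteoclast genes, a list added after Mmp9 had been seen to be high, passed in 8 of 8 cases in HET_early_2, in 5 of 8 in WT_early_5 and in 0 of 8 in HET_early_3. Ctsk, the collagen-degrading protease of osteoclasts, had 24537 in HET_early_2, 34.3 in HET_early_3 and 548 in WT_early_5. In WT_early_5, 4 of 8 osteoblast genes passed, as did 0 of 10 fibroblast genes. Whether these other cells play a part in the members' levels was not tested.

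Adipocyte genes passed in 0 of 10 cases in HET_early_2 and in HET_early_3, in 9 of 10 in WT_early_5 and in up to 8 of 10 in the other 16 tumours. Adipoq, the fat cell hormone adiponectin, had 29.2 normalised reads in HET_early_2, 307 in HET_early_3 and 1953 in WT_early_5, against a median of 155. The summed level of the list was 1323 in HET_early_2, 3535 in HET_early_3, 26634 in WT_early_5 and 524 to 21516 in the other 16 tumours. Of 5 airway genes, 0 passed in HET_early_2, 0 in HET_early_3, 1 in WT_early_5 and at most 1 in the other 16 tumours. Thymic epithelial genes passed in 1 of 7 cases in each of HET_early_2 and HET_early_3, in 2 of 7 in WT_early_5 and in up to 3 of 7 in the other 16 tumours.

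Other muscle genes were counted in the same way. Of the fast muscle genes, 15 of 15 passed in HET_early_2, 13 of 15 in HET_early_3, 7 of 15 in WT_early_5 and at most 2 in the other 16 tumours. Atp2a1, the calcium pump of fast fibres, had 36218 normalised reads in HET_early_2, 1377 in HET_early_3 and 83.7 in WT_early_5, against a median of 5.51. Tnnt3, fast troponin T, had 31277, 946 and 93.5 in these tumours. Of the genes of slow fibres or shared with heart, 11 of 11 passed in HET_early_2, 5 in HET_early_3, 2 in WT_early_5 and up to 3 in the other 16 tumours. Ttn, the giant spring protein titin, had 68343 in HET_early_2, 466 in HET_early_3 and 101 in WT_early_5, against a median of 25.6. Of 5 genes of myogenic regulators and satellite cells, 4 passed in HET_early_2, but only 1 in HET_early_3 and 1 in WT_early_5. In the other 16 tumours at most 1 passed. Myf6, a regulator of muscle fibre genes, had 1006 in HET_early_2, 11.4 in HET_early_3 and 0.890 in WT_early_5. Mef2c, from the same list, was at its median of 1176 in HET_early_3, and Chrna1 had 8.16 there against 7.12. Of 5 heart genes, 2 passed in each of HET_early_2, HET_early_3 and WT_early_5, and at most 1 in the other 16 tumours. Actc1, cardiac actin, had 603 in HET_early_2, 0 in HET_early_3 and 4.45 in WT_early_5, and Tnnt2, cardiac troponin T, had 223, 4.08 and 128, each against a median of 0. Myl4, an atrial myosin light chain, had 451 in HET_early_2, 1503 in HET_early_3 and 1302 in WT_early_5, against a median of 367.

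**Figure D4:**
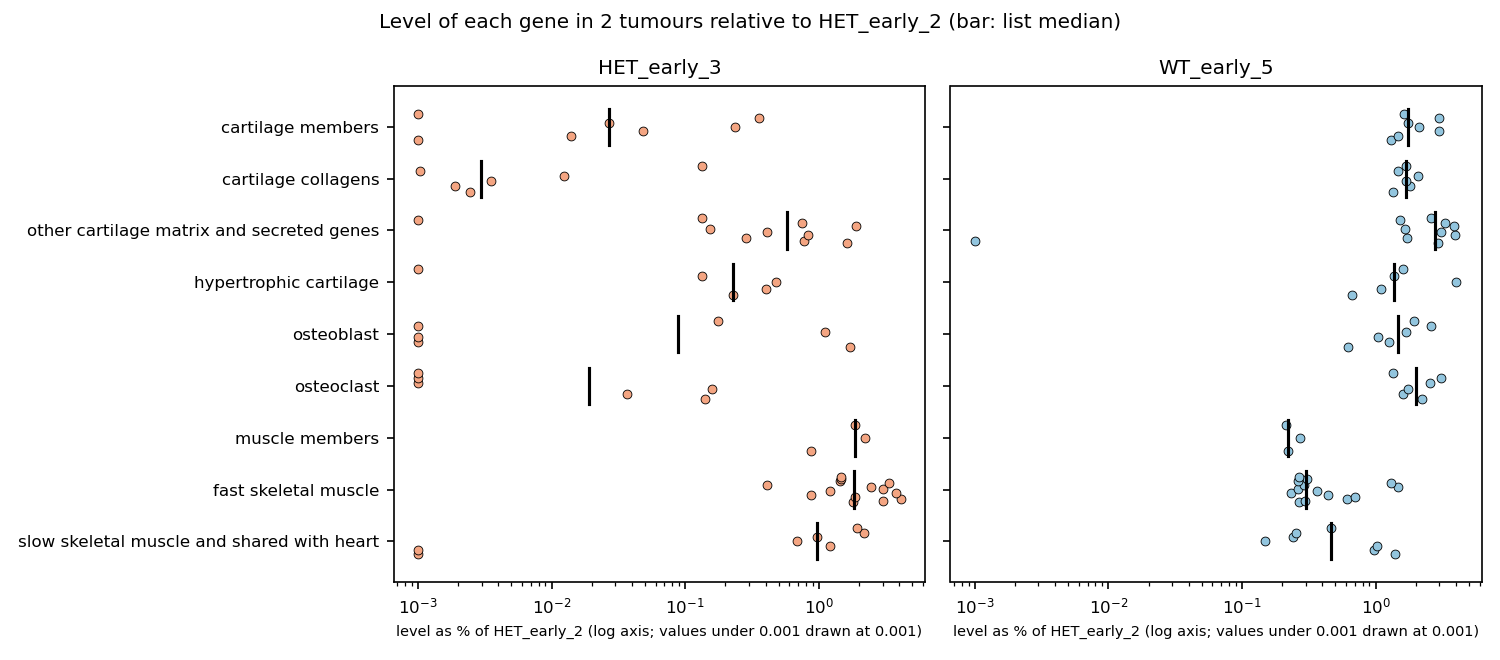
Level of single genes in HET_early_3 (left) and WT_early_5 (right) as a percentage of their level in HET_early_2 (log axis), for genes at least 50 times the median in HET_early_2. Each point is a gene and each bar a list median. Cartilage and bone genes of WT_early_5 lie near 1 to 3% and its muscle genes mostly lower, while in HET_early_3 the muscle genes lie highest.

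Set against HET_early_2, the 2 intermediate tumours kept different proportions. In WT_early_5 the cartilage members stood at 1.30 to 3.0% of their level in HET_early_2, with a median of 1.76%. The cartilage collagens stood at 1.34 to 2.09% there, the osteoblast genes at a median of 1.47% and the osteoclast genes at a median of 1.99%. The muscle members of WT_early_5 stood at 0.214 to 0.272%, below every cartilage member, and the 14 fast muscle genes counted had a median of 0.304%. In HET_early_3 the order was turned round. Its muscle members stood at 0.868 to 2.23% of HET_early_2 and its fast muscle genes at a median of 1.83%, whereas its cartilage members stood at 0 to 0.355%. These percentages cover only genes at least 50 times the median in HET_early_2, a limit set after the values were seen.

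The genes with the pattern most like the members were sought over the 19 tumours, with no test. By Spearman rank correlation with the mean log2 level of the 7 cartilage members, the 10 leading genes were Prkra, Fyn, Adgb, Trp53i13, Emilin1, Lpin3, Tgfb1i1, Fkbp1b, Lama1 and Retreg1, with rho between 0.81 and 0.88. Prkra, which encodes an activator of the kinase PKR, led with a rho of 0.88, but had only 183 normalised reads in HET_early_2 against a median of 46.7. For the 3 muscle members the leading genes were Acta1 itself, Ihh, Myl4, Actn3, Ckm itself, Sfrp5, AC110576.2, Cacna1s, Mybpc2 and Myh1, with rho between 0.75 and 0.91. Ranks gave much weight to tumours with a handful of reads, so this order is a description of sparse counts. Pearson correlation of the log2 levels, added after seeing this, put Susd5, Col9a2, Cnmd, Brinp3, Acan, Col9a1 and Col2a1 at the head for cartilage, with r between 0.97 and 0.98. For muscle it put Ckm, Myh4, Acta1, Cacna1s, the calcium channel of muscle excitation, and Myh1 at the head, with r between 0.98 and 0.99. Members are part of the mean they are set against. All the correlations share HET_early_2, and without it r was 0.89 to 0.93 for those cartilage genes and 0.96 to 0.99 for those muscle genes. These values still hold WT_early_5 and HET_early_3, the other tumours with many reads of the members. By rank, without HET_early_2, the same cartilage genes had rho between -0.13 (Col2a1) and 0.62 (Brinp3), with 0.12 for Col9a1 and 0.36 for Acan, and the muscle genes had rho between 0.58 and 0.89.

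Genotype and onset were compared across all genes with limma on log2(normalised read count + 1). Because the choice of members singled out 3 of the tumours, the fit on the 16 other tumours is given first. In that fit HET_early was left with only HET_early_1 and HET_early_4, and WT_early lost WT_early_5. There, 9 members passed the filter and Cnmd fell below it. In early tumours of these 16, HET_early over WT_early, 0 of 9 members were called at an adjusted p under 0.05, with 0.00519% of all genes called. A positive log2 fold change was found for 3 of the 9, and the median over them was -0.09, beside 0.03 over all genes. Of all genes 928 had an unadjusted p under 0.05, with 1 member among them, Matn4, at 1.38 ± 0.60 (SE) and a limma adjusted p of 0.979. Late tumours gave 0 of 9 members called, HET_late over WT_late, with 0% of all genes called. Here 3 of 9 were positive, with a median of -0.49 beside 0.02 over all genes, and 1654 genes but 0 members had an unadjusted p under 0.05. Late over early, averaged over genotype, gave 0 of 9 members called, with 0% of all genes called, 5 of 9 positive and a median of 0.06 beside -0.04 over all genes. Here 3525 genes and 1 member, Chad, had an unadjusted p under 0.05. edgeR on the same 16 tumours called 0 genes in each of the 3 comparisons.

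Chad came nearest to a call in these 16 tumours. It had 6.10, 0, 0.787 and 1.51 normalised reads in HET_late tumours 1 to 4 and 1.84, 4.08, 8.43, 2.42 and 10.6 in WT_late tumours 1 to 5. It had 9.31 and 11.8 in HET_early tumours 1 and 4, and in WT_early tumours 1 to 4 and 6 it had 6.96, 19.6, 4.91, 8.22 and 24.8. Late and early tumours overlapped. The log2 fold change, late over early, was -1.68 ± 0.52 (SE) with a limma adjusted p of 0.146, which is not a call.

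With all 19 tumours the same fits use the values that chose the members, and are given as a description. In early tumours, HET_early over WT_early, 0 of 10 members were called, with 0% of all genes called and 2293 genes, 2 members among them, at an unadjusted p under 0.05. In the same comparison edgeR called 0 genes, with adjusted p of 0.0623 to 0.202 for the members, and DESeq2 called 400, with no adjusted p for the members. All 10 log2 fold changes were positive, with a median of 2.61 beside 0.09 over all genes. Acan had 2.24 ± 2.65 (SE) with a limma adjusted p of 0.724 and Acta1 had 3.83 ± 2.17 with 0.470. Without HET_early_2, 4 of 10 were positive with a median of -0.43, and Acan was at -1.96. Without WT_early_5, Acan was at 3.96.

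In late tumours of all 19, HET_late over WT_late, 0 of 10 members were called, with 0% of all genes called and 1222 genes, 0 members among them, at an unadjusted p under 0.05. Here edgeR called 0 genes and DESeq2 35. Positive values were found for 4 of 10, with a median of -0.41 and a range of -1.23 to 0.96. Late over early, averaged over genotype, gave 0 of 10 members called by limma with 0.437% of all genes called (49 higher and 38 lower, or 6 higher and 53 lower with scaling by total reads) and 0.191% called lower. Before adjustment 3785 genes had p under 0.05, 4 members among them. All 10 log2 fold changes were negative, with a median of -2.41 beside -0.08 over all genes. Acan had -2.49 ± 1.91 (SE) with a limma adjusted p of 0.489 and Acta1 had -3.33 ± 1.56 with 0.257.

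The count test edgeR gave another answer for onset. On whole reads recovered from the table it called 7 of 10 members lower in late tumours, Acan, Acta1, Chad, Ckm, Cnmd, Matn4 and Myh4, at adjusted p between 0.0421 and 0.0493, with 0.928% of all genes called lower and 2.7% called in either direction. Without HET_early_2 it called 0 of 10 members, with 0.685% of all genes called, 0.184% called lower, and a lowest adjusted p of 0.0608 among the members. Leaving out all 3 tumours gave 0 members and 0% of all genes. Without HET_early_2 the edgeR log2 fold changes were -5.84 for Myh4, -4.65 for Ckm and -4.54 for Acta1, with adjusted p of 0.0608 to 0.0696. Acan had -2.99 with 0.671. That fit kept HET_early_3 and WT_early_5, on whose values the choice of members also rested. Limma without all 3 tumours gave 0.06 for Myh4, -0.16 for Ckm and -0.006 for Acta1. The calls also changed when other tumours were left out. With each of the 19 left out in turn, edgeR called 0 to 7 members and 0 to 893 genes, and 12 of these 19 fits called no member. Those 12 were without HET_early_1, HET_early_2, HET_early_4, WT_early_1, WT_early_3, WT_early_4, WT_early_5, WT_early_6, HET_late_2, HET_late_4, WT_late_1 or WT_late_2. A lost call was not always a smaller fold change. Without HET_early_1 or HET_early_4, 0 of all genes were called, while Acta1 had -7.89 in both fits, beside -7.69 with all 19 tumours.

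**Figure D5:**
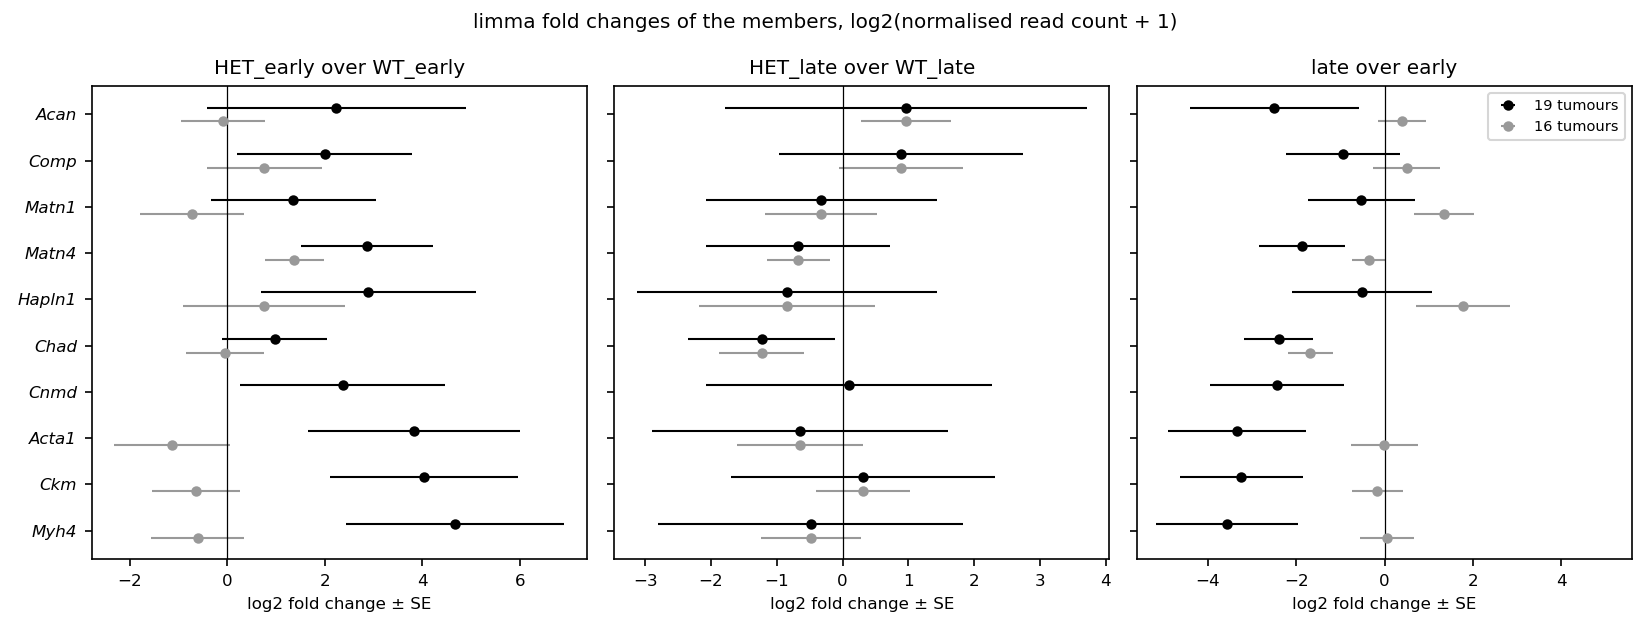
Log2 fold change ± SE of the members from limma on log2(normalised read count + 1), for HET_early over WT_early, HET_late over WT_late, and late over early. Black points use 19 tumours and grey points the 16 tumours without HET_early_2, HET_early_3 and WT_early_5; Cnmd has no grey point. The black points of the left panel are all above 0 and those of the right panel all below 0, while grey points lie on both sides of 0.

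The authors' deposited table holds log2 fold changes and adjusted p-values of their own. For Bptf+/Δ over Bptf+/+ across both onsets, the authors' deposited table lists Myh4 at 5.84 with an adjusted p of 0.00860, Ckm at 4.55 with 0.0541 and Acta1 at 3.37 with 0.146. Myh4 was the only member under 0.05 there, beside 0.338% of all genes with an adjusted p, and 3 members had none. These fold changes in the authors' deposited table are not ratios of the group means for the members. Myh4 averaged 10499 normalised reads over the 8 Bptf+/Δ tumours and 19.2 over the 11 Bptf+/+ tumours, a log2 ratio of 9.10, and Matn1, at -1.77 in the authors' deposited table, had a log2 ratio of means of 4.53. For early Bptf+/Δ over early Bptf+/+ tumours, the authors' deposited table gives log2 fold changes of 3.90 (Chad) to 9.31 (Myh4), and lists no adjusted p for any of the 10 members. Myh4 had 82456 normalised reads in HET_early_2 and 1530 in HET_early_3, against 176 in WT_early_5 and at most 13.3 in all remaining tumours.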

How the data were processed

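Polyadenylated RNA of 19 lymphomas was sequenced on a Genome Analyzer IIx after TruSeq library preparation, per the labels' protocols. Those name 2 kit protocols with different PCR cycle numbers but not which tumour had which, so values within a batch could not be computed. Per the submitters' processing notes, the tools were Cufflinks 2.2.1 with Cuffnorm and Cuffdiff, TopHat2 2.1.1 and FastQC 0.11.5, and the builds GRCm38 and mm10. The deposited table held a normalised signal per gene, which is the authors' gene count over a scaling factor of the library: 100% of values gave whole reads within 0.01 of a read. The authors also deposited log2 fold changes and adjusted p-values, whose direction was checked against group means. Over both onsets, 97.9% of the 10145 genes with both means over 50 had the same sign and 3.69% differed by over 1 on the log2 scale, which the members do as well. The labels do not say which tool made either. All 19 column headers matched a label.

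In R 4.3.3, limma 3.58.1 with a mean-variance trend was run on log2(value + 1), with the 4 group means in 1 model and Benjamini-Hochberg adjustment over the 19927 genes that reached a value of 1 in 4 or more tumours. Fold changes on this scale understate changes of low genes. edgeR 4.0.16 and DESeq2 1.42.0 on recovered reads, a pseudocount of 0.1, no filter, scaling by total reads, fits of only the groups compared, and fits without 1 or without 3 tumours were alternatives. The scripts were tested on simulated counts. No 2 libraries agreed within sampling noise (lowest chi-square per gene 17.2 over 171 pairs). RPKM values were computed here from recovered reads and the principal transcript length in GENCODE M21 (GRCm38), from which gene names were matched. Promoters came from RefSeq (GRCm38.p6), in which 9 of the 10 members were found.

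The members and the gene lists were chosen with earlier results of these data known, and the osteoclast list, the Pearson correlation, the edgeR fits with tumours left out and the shorter Ckm transcript were added after seeing values. Genes were named by rule: the 10 members, up to 6 genes with the highest value from each list, the 10 genes most like each member mean by Spearman correlation, and Acan and Acta1, the members with the most reads, in the comparisons. Cd79a and Thbs4 were named under that rule, and Bptf and Myc as checks of the labels.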

Additional observations from a re-analysis of the deposited data

Results flagged for a closer look

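Single tumours that stood apart within their group were sought in 40 sets, 10 members by 4 groups, on log2(normalised read count + 1), as a gap to the nearest tumour that exceeded Dixon's critical value. Chance flags about 1 in 20 sets. The search found 17 values, but it used the values on which the members were chosen, so their number is a description and is not set against that rate. Of the 17, 5 were high values of HET_early_2 and 6 were high values of WT_early_5. HET_early_2 stood above the other HET_early tumours with 142977 normalised reads of Acan, 1685 of Matn1, 2083 of Matn4, 9155 of Hapln1 and 17646 of Cnmd. Its muscle members did not stand apart by this measure, since HET_early_3 was high as well. WT_early_5 stood above the other WT_early tumours with 1865 of Acan, 258 of Comp, 49.8 of Matn1, 43.6 of Matn4, 161 of Hapln1 and 288 of Cnmd.

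Of the values of late tumours that stood apart, 2 rested on more than 1 read. WT_late_2 had 533 normalised reads of Hapln1, from 523 reads. WT_late_4 had 10.9 of Ckm, from only 9 reads, with 13.3 of Myh4 and 15.7 of Acta1 in the same tumour. The remaining ones rested on 0 reads or 1 read: Cnmd at 1.44 in HET_late_2 and at 1.18 in WT_late_5 stood above tumours at 0, and Matn1 at 0 in HET_late_3 and Myh4 at 0 in HET_late_2 stood below the rest of HET_late.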

How the results depend on the processing

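No paired analysis was possible because the labels do not link tumours into pairs. The count of genes called moved with the tool: DESeq2 called 400 genes in early tumours, 35 in late tumours and 1855 for onset, against 0, 0 and 87 with limma, and gave no adjusted p for any of the 10 members. edgeR called 539 genes and 7 members for onset, 134 genes and 0 members without HET_early_2, 0 to 893 genes and 0 to 7 members when each tumour was left out in turn, and 0 genes without HET_early_2, HET_early_3 and WT_early_5. Limma without these 3 tumours called 1 gene in early tumours and 0 for onset. Leaving out 1 tumour at a time gave 0 to 2 genes in early tumours, 0 to 2 in late tumours and 0 to 490 for onset, where 10 of 19 such fits called none, and 0 members in each. The highest count for onset, 490, came without HET_late_3.

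The early difference of Acan turned to -0.089 without the 3 tumours, -9.54 in edgeR without HET_early_2 and -0.52 in edgeR without the 3, and ranged from -1.96 (without HET_early_2) to 3.96 with 1 tumour left out. That of Acta1 turned to -1.12 without the 3 tumours and -2.90 in edgeR without them, and ranged from 0.75 to 5.78. For onset, Acan turned to 0.39 without the 3 tumours and 1.08 in edgeR without them, with -3.25 to -0.39 when 1 was left out, and Acta1 ranged from -4.31 to -1.79. In edgeR with all tumours the onset values were -11.12 for Acan and -7.69 for Acta1. Late genotype differences ranged from 0.16 to 1.42 for Acan and from -1.10 to -0.08 for Acta1. The cause was not tested beyond leaving tumours out. Scaling by total reads split the onset calls into 6 higher and 53 lower, against 49 and 38, and shifted the median of all genes to -0.20 for onset and -0.10 in late tumours. With an 8-fold in place of the 4-fold mark, 57 of 69 list counts stayed within 1.5 times. Outside these 3 tumours most values rested on a few reads, so small differences were not detectable at this depth.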

Other observations

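WT_early_6 held 499609 normalised reads of Bpifa2, a salivary gland protein, and the summed level of the 5 salivary genes was highest there, at 659187, against at most 261 in HET_early_2, HET_early_3 and WT_early_5. Acan had 0 normalised reads in WT_early_6, and Acta1 and Myh4 had 3.67 each, against medians of 0, 3.67 and 1.51 over the 19 tumours. Chad was not low there, with 24.8 against a median of 6.96. WT_early_5, where the members were intermediate, had the second-highest salivary sum, 261. It had 220 normalised reads of Amy1, a salivary amylase, against a median of 18.7. Aqp5, a water channel of salivary gland, had 26.7 there against a median of 0. HET_late_3 and HET_early_4 had similar sums, 251 and 236, with 245 of Amy1 in HET_late_3 and 26.1 of Aqp5 in HET_early_4. Acan was at 2.36 in HET_late_3 and 0 in HET_early_4, and Acta1 at 6.29 and 1.68.

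Several genes outside the lists were as far from the median in HET_early_2 as the members. Xirp2, an actin-binding protein of muscle, had 11872 normalised reads in HET_early_2, 56.3 in HET_early_3 and 24.9 in WT_early_5. Meltf had 10280, 0 and 158 in the same tumours, and Susd5 had 3238, 0 and 62.3. These 3 were chosen after their values were seen.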
